A study of Mus musculus with 4 samples.

Results

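The 7 genes *Klf2*, *Klf4*, *Nos3*, *Thbd*, *Klk10*, *Edn1* and *Piezo1*, by which endothelial cells (EC) are known to sense or answer shear stress, were followed through single-cell RNA profiles of mouse aorta. They were chosen by name, for what is known of them and with earlier results of these data known, and are 7 of the 18767 genes in the deposited table. All 7 had a row, and 6 of them passed the filter on low counts for the comparison of genotype labels, *Piezo1* being the one that did not. The levels come from 824 of the 991 deposited cells, those in which more than 1200 genes were detected.

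The study used young adult male mice on a C57BL/6J background, and those of both groups carried floxed *Jag1* alleles (*Jag1* fl/fl). Mice labelled Jag1 ECKO also carried *Cdh5*-CreERT2/+, a Cre that is switched on by tamoxifen and driven by the VE-cadherin promoter in EC, whereas Jag1 ECWT mice lacked Cre, and the methods do not restate tamoxifen or diet for the sequenced aortas. Aortas were stripped of adventitia and digested with enzymes, and CD31+ CD45- TO-PRO-3- single cells were sorted into multiwell plates for SORT-seq, which counts the 3′ ends of transcripts with molecular identifiers. Libraries s001 and s002 were labelled Jag1 ECKO and s003 and s004 Jag1 ECWT, and the number of animals in each is not given in the sources used here.

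Blood flowing along a vessel drags on its lining, and EC read that drag through channels, junctional receptors and G proteins. Steady laminar flow acts through a MEKK3-ERK5 kinase route and MEF2 transcription factors to raise KLF2 and KLF4, which in turn raise eNOS (*Nos3*) and thrombomodulin (*Thbd*) and lower endothelin-1 (*Edn1*). The result in healthy artery is a surface that keeps the vessel relaxed and blood fluid, whereas disturbed flow at bends and branches has the opposite effect.

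*Jag1*, the targeted gene, was read first as a check of the labels. It had 158 and 70.8 CPM (counts per 1000000 counts of a library) in the libraries labelled Jag1 ECKO and 32.6 and 26.1 CPM in those labelled Jag1 ECWT, so it was higher in both libraries that carry the deletion by label. Which exons the floxed allele loses is not given in the sources used here, and 3′ counts from an undeleted end would not show the deletion. The study also measured the deletion by quantitative PCR and by staining of the vessel lining, which were not analysed here. These counts alone neither check nor overturn the labels, which are used below as names of libraries. After the filter on cells the libraries held 202, 236, 140 and 246 cells in the order s001 to s004, with 859280 to 1779042 summed counts a library. Clusters that passed the endothelial marker list held 794 cells, and 30 cells fell in a cluster with fibroblast and smooth muscle markers. Among the 794 was a cluster of 29 cells, all from s001, led by the immediate early genes *Nr4a1*, *Junb*, *Egr1* and *Dusp1*. Summed over the 12 endothelial markers, the level was 10004 to 11599 CPM in the 4 libraries, whereas 8 leukocyte genes together reached 2.95 to 13.97 CPM. Between pairs of libraries, 118 to 216 well barcodes were shared, as a common set of barcodes per plate gives.

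The sequence just upstream of the start site is shown for the 4 genes whose cell-to-cell pattern is described further on, namely *Klf2*, *Klf4* and *Klk10*, which varied together, and *Edn1*, which varied against them. The stretches are 180 bases ending at the annotated start, 5′ to 3′ on the gene's strand, from RefSeq on GRCm38.p6. The promoter table held 5 of the 7 genes, lacking *Nos3* and *Thbd*. Motifs were chosen after the sequences had been seen, and were searched on both strands: the MEF2 consensus, the KLF core CACCC, the shear stress response element GAGACC and the AP-1 site TGANTCA. Capitals mark every match in the printed stretches.
Klf2 (chr8:72318853-72319032, plus strand): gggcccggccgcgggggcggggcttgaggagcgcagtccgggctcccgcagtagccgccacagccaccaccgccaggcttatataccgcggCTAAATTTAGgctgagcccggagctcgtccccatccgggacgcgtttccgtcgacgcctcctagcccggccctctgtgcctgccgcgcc
Klk10 (chr7:43780855-43781034, plus strand): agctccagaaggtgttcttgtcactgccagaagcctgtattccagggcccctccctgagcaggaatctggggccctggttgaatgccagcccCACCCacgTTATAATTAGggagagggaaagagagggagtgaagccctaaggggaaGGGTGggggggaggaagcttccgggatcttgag
Edn1 (chr13:42301296-42301475, plus strand): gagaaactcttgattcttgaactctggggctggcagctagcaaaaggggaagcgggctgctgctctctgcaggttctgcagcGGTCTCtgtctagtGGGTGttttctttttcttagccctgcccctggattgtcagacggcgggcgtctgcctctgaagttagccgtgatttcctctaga
Klf4 (chr4:55532476-55532655, minus strand): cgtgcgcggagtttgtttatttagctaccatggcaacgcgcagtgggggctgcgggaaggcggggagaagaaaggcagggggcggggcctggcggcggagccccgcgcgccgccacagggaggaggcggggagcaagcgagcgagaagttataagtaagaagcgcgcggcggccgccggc
A match to the MEF2 consensus stood in the windows of *Klf2* and *Klk10*, and 3.19% of all 32851 promoter windows of 300 bases held one. The *Klf2* match, CTAAATTTAG, and the *Klk10* match, TTATAATTAG, each count once, being read on both strands. In the 300-base windows CACCC was found 3 times for *Edn1*, 2 times for *Klk10*, 1 time for *Klf2* and not for *Klf4*, against 57.5% of all windows with at least 1. GAGACC, which 16.4% of windows held, was present 1 time in *Edn1* and 1 time in *Piezo1*, and in each case it was read on the opposite strand. TGANTCA was absent from all 5 windows and was held by 7.81% of all. These are letter matches and say nothing of binding.

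Of the transcription factors, *Klf2*, which lies on GRCm38 chromosome 8 from 72319033 to 72321656, had 462, 234, 620 and 306 CPM in s001 to s004. Its 95% Poisson intervals, which cover counting error only, were 421 to 505, 212 to 257, 569 to 675 and 279 to 336 CPM in the same order, so no 2 of them overlapped. The order of libraries did not follow the label, since the highest and the second lowest both carried the label Jag1 ECWT. The highest library stood 2.65-fold over the lowest, with a 1.97-fold gap within Jag1 ECKO and a 2.03-fold gap within Jag1 ECWT. Over the 6809 genes with at least 100 counts the median of the same fold was 1.48, and 15.9% of genes exceeded 2-fold. In clusters with at least 5 cells of both libraries, *Klf2* was higher in s003 than in s002 in 6 of 7.

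*Klf4*, a second Krüppel-like factor that answers laminar flow, had 437, 205, 431 and 257 CPM. It split the libraries into the same pairs as *Klf2*, s001 and s003 high and s002 and s004 low, and its highest library stood 2.13-fold over its lowest. Counts were found in 68.4% of cells for *Klf2* and 62.6% for *Klf4*.

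Among their targets, *Nos3*, which encodes the EC enzyme that makes nitric oxide, had 527, 317, 434 and 426 CPM in s001 to s004. *Thbd*, the thrombin receptor that turns thrombin towards protein C activation, had 432, 306, 388 and 423 CPM. Both were lowest in s002 and moved little otherwise, so that the highest library stood 1.66-fold over the lowest for *Nos3* and 1.41-fold for *Thbd*, the latter below the median of all genes. *Nos3* had a count in 80.9% of cells, the widest detection of the 7, and *Thbd* in 74.5%.

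*Klk10*, a kallikrein-related secreted protein raised by laminar flow, had 343, 227, 296 and 196 CPM in s001 to s004. *Edn1*, the precursor of the vasoconstrictor endothelin-1, had 347, 302, 189 and 426 CPM. The *Edn1* order was unlike that of the other genes, with s003, the library highest for *Klf2*, at the bottom and s004 at the top, 2.26-fold apart within the label Jag1 ECWT. *Edn1* was higher in s004 than in s003 in 6 of 7 clusters with at least 5 cells of each. Counts were found in 47.2% of cells for *Klk10* and 50.1% for *Edn1*.

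*Piezo1*, a mechanically gated cation channel, was close to the limit of detection. It had 6, 17, 5 and 4 counts in s001 to s004, or 5.91, 9.56, 5.82 and 2.68 CPM, and 27 of the 824 cells held a count. Both Jag1 ECKO libraries lay above both Jag1 ECWT libraries, but the intervals of s001 (2.17 to 12.9 CPM) and s003 (1.89 to 13.6 CPM) covered each other, and no difference was detectable at this depth.

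**Figure D1:**
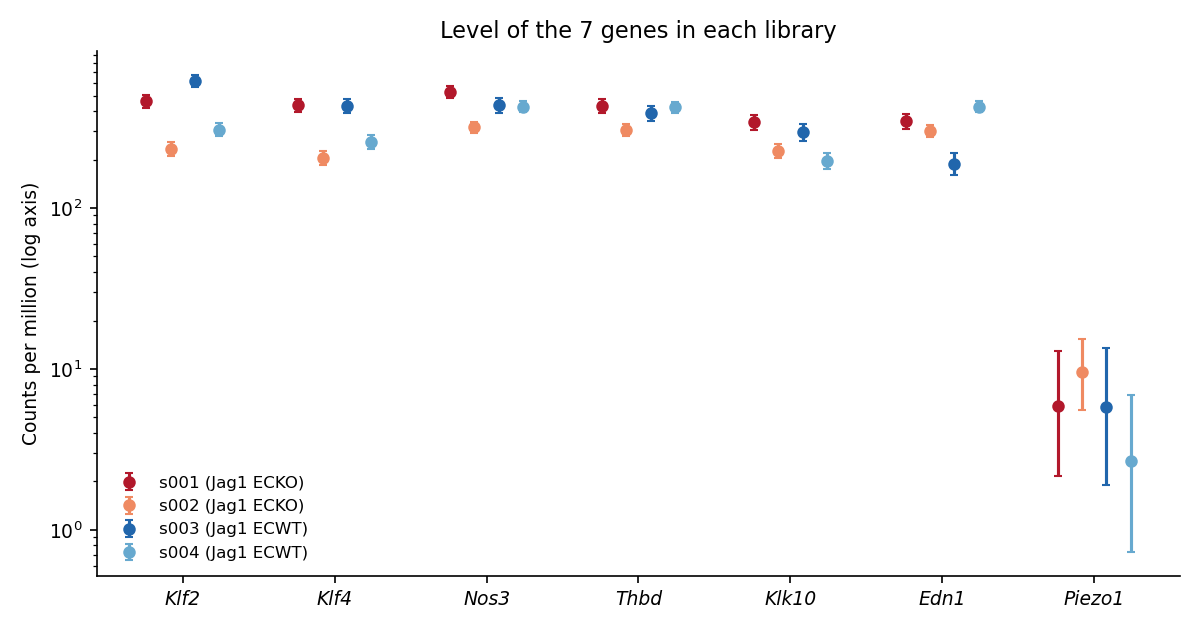
CPM of the 7 genes in each library (log axis), with 95% Poisson intervals of the summed counts. *Klf2* and *Klf4* are high in s001 and s003 and low in s002 and s004, *Edn1* is lowest in s003, and *Piezo1* lies far below the other genes.

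Because s001 was shallower (median 4212 counts a cell) than s002 (6518), each cell was thinned to 2837 counts, which left 742 cells, 166, 223, 127 and 226 in s001 to s004, and dropped 36, 13, 13 and 20 shallower ones. *Klf2* was then found in 65.1%, 44.8%, 67.7% and 49.6% of cells in s001 to s004, and *Klf4* in 55.4%, 38.6%, 54.3% and 43.4%. The pairing of s001 with s003 thus stood at equal depth, and showed in the share of cells with a count as well as in the summed level. *Edn1* was found in 45.2%, 39.0%, 23.6% and 44.2% of thinned cells, and s003 was again apart. *Nos3* ranged from 56.1% to 69.9%, *Thbd* from 51.1% to 61.9% and *Klk10* from 29.2% to 41.0%.

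The genes differed in how their counts were spread over cells. For *Nos3* the variance of the thinned counts was 1.24 to 1.45 times the mean, and the highest 10% of cells held 31.7% to 36.9% of its counts. *Klk10* was far more uneven, with a ratio of 2.04 to 3.56 and 53.6% to 60.9% of counts in the highest 10% of cells. *Edn1* was alike, with a ratio of 2.05 to 4.09 and 42.6% to 69.0%. *Nos3* was therefore spread over most EC, and *Klk10* and *Edn1* were concentrated in part of them. Only 4 of the 824 cells held no count of any of the 7 genes, and 4 held a count of all 7.

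In the 30 cells with fibroblast and smooth muscle markers, which were deeper (median 7604 counts) than the EC-like cells (5246), *Klk10* had 1 count, 3.61 CPM against 266 CPM in EC-like cells. *Edn1* fell from 344 to 47.0 CPM and *Nos3* from 427 to 108 CPM between these classes. *Klf2* kept 177 against 375 CPM, and was found in 66.7% of those cells, close to the 68.5% of EC-like cells, so a share of cells does not set EC apart for this gene. These are descriptions, since the genes were not kept out of the clustering.

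Across cells of a library, *Klf2*, *Klf4* and *Klk10* went together and *Edn1* went against them. Of 21 pairs, 6 had a positive and 5 a negative Pearson r in every library at matched depth, calculated on log(1 + thinned count) in 1 draw. Over all genes, 3.99% to 11.3% were positive and 5.28% to 10.02% negative with each of the 7 in every library. The fifth negative pair, *Edn1* with *Piezo1*, rests on few counts and was negative throughout in 3 of 20 other draws. *Klf2* and *Klf4* went together (r = 0.302, 0.0956, 0.250 and 0.173 in s001 to s004). *Klf4* and *Klk10* did so too (0.225, 0.178, 0.181 and 0.235), as did *Klf2* and *Klk10* (0.254, 0.0925, 0.138 and 0.0894). *Nos3* joined them weakly, with a mean r of 0.113 with *Klf2*, 0.133 with *Klf4* and 0.113 with *Klk10*. Over 20 other draws these means were 0.0928, 0.115 and 0.0865, positive in all libraries in 12, 19 and 15.

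*Edn1* went against the same 3 genes in all 4 libraries. Its r with *Klf2* was -0.253, -0.169, -0.196 and -0.263 in s001 to s004. With *Klf4* it was -0.162, -0.173, -0.120 and -0.157, and with *Klk10* -0.216, -0.138, -0.175 and -0.171. *Nos3* with *Edn1* was also negative in each library of this draw (-0.0265, -0.114, -0.0861 and -0.103), but in 8 of 20 other draws only. *Thbd* was of mixed sign with *Klf2* and with *Edn1* (mean r of 0.0065 and -0.0071). With *Klk10* it was of mixed sign in this draw too, but its mean over the other draws, 0.0985, was close to that of *Nos3* with *Klk10* (0.0865). The cells of a library share its depth and plate, and r values of this size in sparse counts describe these libraries only. They also shift with the random draw. Over 20 other draws the mean r was -0.188 for *Klf2* with *Edn1* (-0.227 to -0.129), -0.151 for *Klf4* with *Edn1* and -0.163 for *Klk10* with *Edn1*, and all 4 libraries were negative in 20, 18 and 20 draws, respectively. For *Klf2* with *Klf4* the draws gave a mean of 0.199 (0.148 to 0.255), positive in all libraries in 19 draws, and for *Klf4* with *Klk10* a mean of 0.156 (0.111 to 0.213), positive in 18. *Klf2* with *Klk10* was the least steady of these, with a mean of 0.128 (0.0540 to 0.164), positive in 16. Within EC-like clusters, an alternative added after the data had been seen, the mean r of these 6 pairs kept its sign but was smaller, -0.143 for *Klf2* with *Edn1* and -0.0249 for *Klf4* with *Edn1*, and *Klf2* with *Klk10* (0.0417) was positive in 6 and negative in 6 of 12 clusters.

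**Figure D2:**
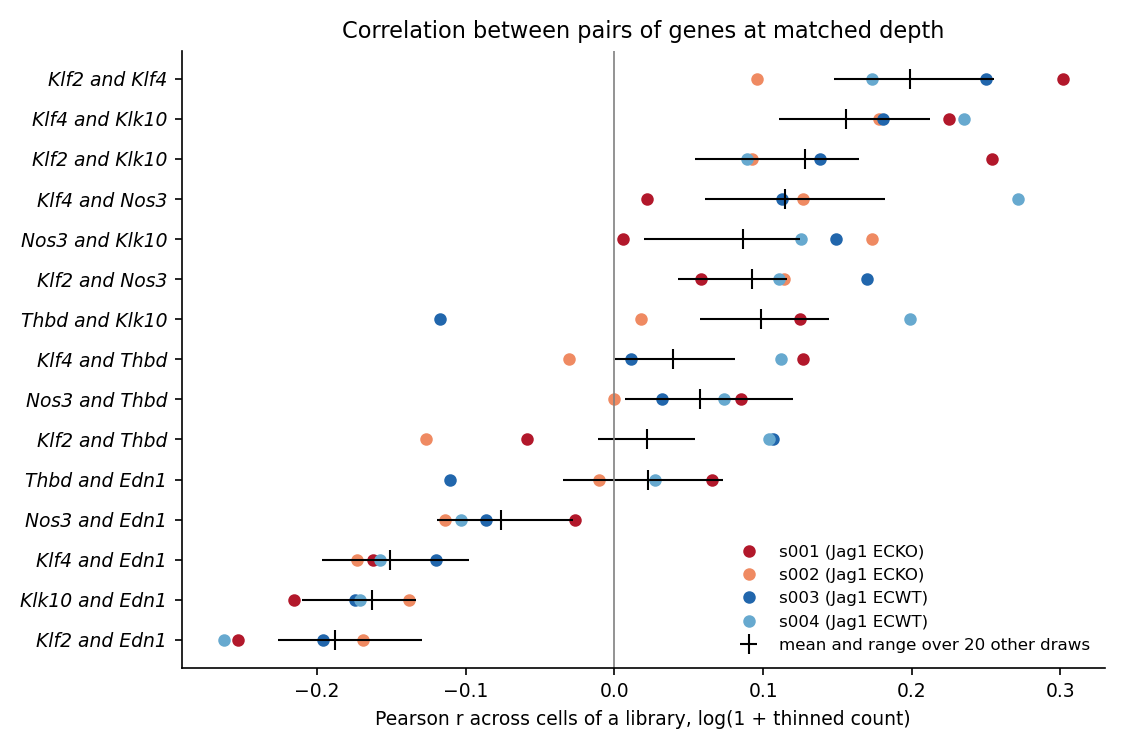
Pearson r across the cells of each library for the 15 pairs without *Piezo1*, on log(1 + thinned count). Coloured points are the 4 libraries in 1 draw, and black marks give the mean and range of the 4-library mean over 20 other draws. *Edn1* with *Klf2*, *Klk10* and *Klf4* lies below 0 in every library, and *Klf2*, *Klf4* and *Klk10* with each other lie above it.

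Splitting the thinned cells by a count of *Edn1* gives the same pattern in shares of cells. In s001 *Klf2* was found in 56.0% of the 75 cells with an *Edn1* count and 72.5% of the 91 without one. The corresponding shares were 37.9% and 49.3% in s002, 53.3% and 72.2% in s003, and 40.0% and 57.1% in s004. *Klk10* was found in 30.7% against 49.5% in s001, 28.7% against 37.5% in s002, 13.3% against 38.1% in s003 and 23.0% against 34.1% in s004. *Klf4* was also lower in cells with *Edn1* in each library, the widest gap being 44.0% against 64.8% in s001 and the narrowest 50% against 55.7% in s003. *Nos3* was of mixed direction in shares, with 70.7% against 69.2% in s001, 52.9% against 58.1% in s002, 63.3% against 62.9% in s003 and 63.0% against 62.7% in s004, although its mean count was lower in cells with *Edn1* in each library. The exact binomial intervals, for counting error only, overlapped in all 20 splits (5 genes in 4 libraries), and in s003 only 30 cells held an *Edn1* count.

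**Figure D3:**
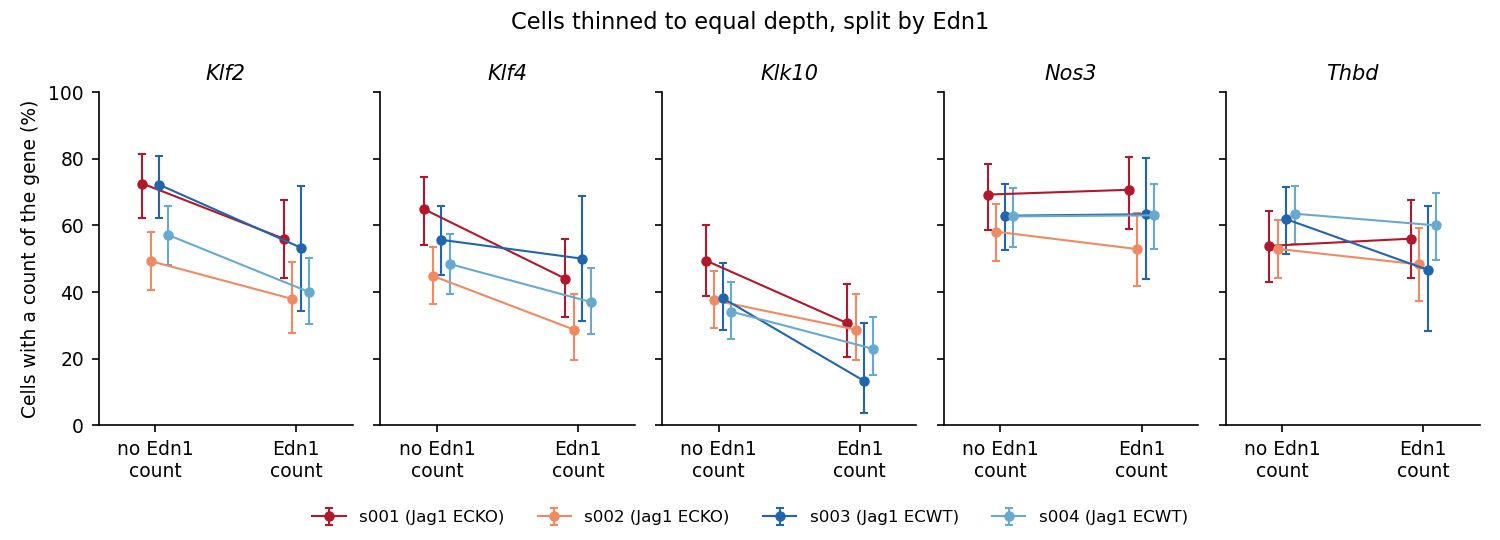
Percent of thinned cells with a count of *Klf2*, *Klf4*, *Klk10*, *Nos3* or *Thbd*, among cells without and with a count of *Edn1*, in each library, with 95% exact binomial intervals. All 4 lines fall for *Klf2*, *Klf4* and *Klk10*, and those of *Nos3* differ in direction.

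The genes most like each of the 7 were read by the same r, over the 3086 genes with a count in at least 10% of the thinned cells of every library. *Edn1* had the closest company. *Bmp4*, a bone morphogenetic protein that EC make under disturbed flow, reached r = 0.448, 0.348, 0.464 and 0.497 in s001 to s004. *Thbs1*, the matrix protein thrombospondin-1, reached 0.243, 0.353, 0.514 and 0.427, and *Cyr61*, a matricellular target of YAP, reached 0.217, 0.330, 0.361 and 0.431. Against *Edn1* the 99th percentile of all genes was 0.154. Over the 20 other draws *Bmp4* and *Thbs1* were among the 3 closest genes in 20 and *Cyr61* in 18. The summed levels of *Bmp4* were 1832, 2271, 2095 and 2371 CPM in s001 to s004, and s003, lowest for *Edn1*, was not its lowest library.

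For *Klf2* the closest genes were *Klf4*, *Adam15*, a cell-surface metalloprotease, and *Epas1*, the hypoxia-inducible factor HIF-2α. *Epas1* had a mean r of 0.180 and stayed among the 3 closest in 15 of 20 other draws, and *Adam15* in 1. *Klf4* was closest to *Palmd*, palmdelphin, at a mean r of 0.231, then to *Klf2* and *Klk10*. Over the other draws *Klf2* came first (0.199, among the 3 closest in 18 of 20) and *Ly6a* second (0.169), and *Palmd* (0.158) and *Klk10* (0.156) were among the 3 closest in 6 each. *Klk10* was closest to *Cd93*, a surface glycoprotein of EC, at 0.249, 0.285, 0.130 and 0.294 in s001 to s004, followed by *Ly6a* and the tight junction gene *Cldn5*. *Cd93* was kept in 19 of 20 draws, *Cldn5* in 7 and *Ly6a* in 1. *Nos3* was closest to *Pecam1* (0.271, 0.185, 0.243 and 0.172), which encodes CD31, the antigen of the sort, followed by *Cmip* and *Sulf2*, and these were kept in 19, 5 and 2 draws. The genes closest to *Thbd*, *Bcam*, *Hpcal1* and *Pon2*, were among the first 3 in 1, 1 and 0 of the other draws. By the mean over those draws *Aqp1* came first for *Thbd* (0.115, positive in all libraries in 16 of 20), then *Cd93* and *Klk10*. The nearest genes to *Piezo1*, *Chmp3*, *Mapk1ip1l* and *Csnk1g2*, were likewise kept in 1 draw each, and with so few counts no likeness can be read.

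Other flow genes were then set against *Edn1*. Of 17 listed genes known to be raised by laminar flow or by KLF2 and KLF4, 13 were frequent enough. In 1 draw 7 of these had a negative and 4 a positive r with *Edn1* in all 4 libraries, with a median of -0.0497. Of all 3085 genes 309 were negative and 297 (9.63%) positive in every library of that draw. Over 20 other draws *Slco2a1*, among the 7, was negative throughout in 4 only. *Nfe2l2*, among the 4, was positive throughout in 6 only, and the rest kept their sign throughout in 14 to 20. Aquaporin-1 (*Aqp1*) had -0.0988, -0.122, -0.127 and -0.187 in s001 to s004, and the angiopoietin receptor gene *Tek* had -0.110, -0.116, -0.0941 and -0.127. The 4 positive genes were *Smad6* and *Smad7*, which encode inhibitors of BMP and TGFβ signalling, the gap junction gene *Gja4* and *Nfe2l2*, and *Smad6* reached 0.129, 0.255, 0.155 and 0.230. On the list of genes raised by disturbed flow, 6 of 17 were frequent enough and 4 were positive with *Edn1* in every library, with a median of 0.165. Besides *Bmp4* and *Cyr61* these were the adhesion receptor gene *Selp* (0.360, 0.160, 0.158 and 0.260) and the growth factor gene *Pdgfb*. *Icam1* and *Vcam1* were of mixed sign. *Vcam1*, which encodes a leukocyte adhesion molecule, was instead positive with *Klf2*, *Klf4*, *Klk10* and *Nos3* in every library of that draw, and in 6, 15, 9 and 11 of 20 other draws.

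*Klf4* showed the reverse of *Edn1* for several of these genes. With *Klf4*, 6 of the 13 laminar flow genes were positive and 1 was negative in every library of 1 draw, with a median of 0.0724. Of all genes 8.88% were positive. Over 20 other draws the 6 were positive throughout in 9 (*Tek*) to 20 (*Palmd*), and the negative gene, *Smad7*, was negative throughout in 2. *Bmp4* was negative with *Klf4* in every library in 20 of 20 other draws. For *Klk10* the podocalyxin gene *Podxl* and the protease inhibitor gene *Timp3* were positive in every library in 20 of 20 draws. The counts that follow are from 1 draw only. Of the 12 mechanosensor genes that were frequent enough, 6 were positive with *Klf2* in every library, among them *Gnaq* and *Pecam1*. None was negative, and 10.4% of all genes were positive. Of the 4 genes of the kinase route to KLF2 and KLF4 that were frequent enough, 0 were positive or negative with *Klf2* in all libraries. Of 18 dissociation genes, those raised by digesting tissue, 2 were positive with *Klf2*, 6 with *Klf4* and 3 with *Edn1*. Their part in these correlations was not tested.

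**Figure D4:**
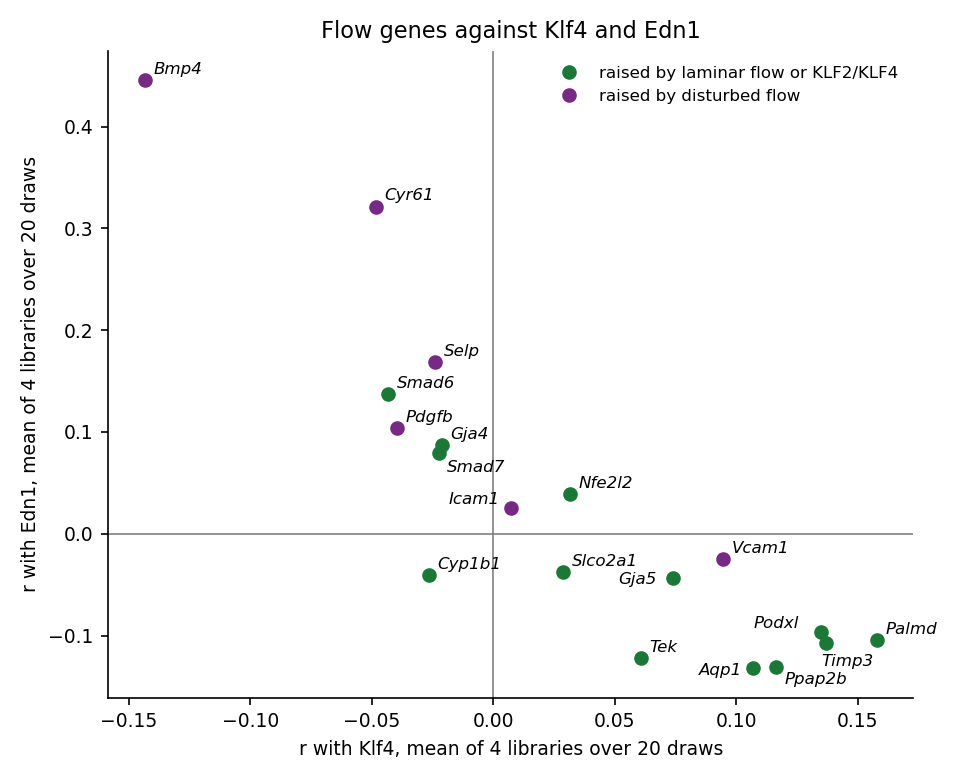
Each point is a listed flow gene, placed by its r with *Klf4* (horizontal) and with *Edn1* (vertical), as the mean of 4 libraries over 20 draws at matched depth. *Bmp4* and *Cyr61* stand at the upper left, and *Aqp1*, *Ppap2b*, *Timp3*, *Podxl* and *Palmd* at the lower right.

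The same opposition was seen between clusters, which are given as description, since the 7 genes were not kept out of the clustering. Among the 13 EC-like clusters *Edn1* ran from 27.6 to 793 CPM, a 28.7-fold span. In pooled cells it was highest in cluster 3, led by *Sfrp2*, *Thbs1* and *Gdf6* (630, 503, 627 and 924 CPM in s001 to s004), and in cluster 10, led by *Coch* and *Adra2a* (669 CPM). It was lowest in cluster 7, led by *Ifit1*, *Pthlh*, *Hbegf* and *Klk10* itself (46.0, 25.2, 7.22 and 31.2 CPM in s001 to s004), and in cluster 5, led by *Galnt18* and *Aqp1* (38.0 CPM). Cluster 3 thus stood above cluster 7 in each library. Of the 88 cells of cluster 3, 55 came from s004, the library with the highest *Edn1*. Among EC-like clusters with at least 5 cells of a library, the highest was cluster 4 in s001 (1024 CPM), 10 in s002 (793 CPM), 3 in s003 and 6 in s004 (961 CPM), while cluster 7 was lowest in s001, s002 and s004. In s003 the lowest was cluster 8, with no count in 5 cells.

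*Klk10* was highest in cluster 7, where pooled *Edn1* was lowest. Among clusters with at least 5 cells of a library, it led in every library (808, 656, 837 and 593 CPM in s001 to s004). In pooled cells cluster 5 came next at 488 CPM, whereas in s001 and s002 cluster 2 did (620 and 476 CPM). Pooled *Klk10* was 32.7 CPM in cluster 3 and, from 1 count, 14.5 CPM in cluster 13, led by the capillary genes *Gpihbp1* and *Cd36*. Pooled cluster 2, led by *Vcan* and *Nog*, was high for both *Edn1* (460 CPM) and *Klk10* (432 CPM). In s003, with 9 cells, it was not, at 76.7 CPM for *Edn1* and 230 CPM for *Klk10* against 189 and 296 CPM in that whole library. Pooled cluster 13 was low for both (*Edn1* at 57.8 CPM), so the opposition was not complete.

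The pooled levels of the other genes are given beside those within libraries, since clusters drew unequally on the libraries. The orders within libraries cover EC-like clusters with at least 5 cells of that library, and some clusters with fewer cells had higher values. The cluster of immediate early genes (cluster 12) held s001 cells only, and cluster 8, led by the globin *Beta-s*, drew 26 of its 39 cells from s001. Pooled *Klf4* was highest in clusters 7 (638 CPM) and 12 (632 CPM) and lowest in clusters 10 (118 CPM) and 3 (149 CPM). Within libraries its highest EC-like cluster was 7 in s001, s003 and s004 (637, 852 and 530 CPM) and 5 in s002 (409 CPM). Pooled *Klf2* was highest in clusters 12 (774 CPM) and 8 (714 CPM) and lowest in clusters 10 (151 CPM) and 9 (164 CPM). Within libraries the highest *Klf2* stood in 4 different clusters, 8 in s001 (817 CPM), 3 in s002 (390 CPM), 5 in s003 (977 CPM) and 7 in s004 (624 CPM). Pooled *Nos3* ran from 202 CPM in cluster 13 and 287 CPM in cluster 4 to 652 CPM in cluster 12 and 707 CPM in cluster 8, whereas within s001 cluster 2 was highest (719 CPM). Cluster 7 was highest for *Nos3* in s002 and s004 (567 and 686 CPM). Pooled *Thbd* ran from 277 CPM in cluster 9 and 287 CPM in cluster 1 to 493 CPM in cluster 10 and 511 CPM in cluster 12, a 1.85-fold span. Within single libraries *Thbd* spanned 2.05-fold to 3.53-fold, with cluster 4 highest in s001 (791 CPM), 13 in s003 (811 CPM) and 7 in s002 and s004 (555 and 733 CPM). *Piezo1* was highest in cluster 9, led by *Lrg1* and *Fabp4*, at 33.9 CPM, which rests on 6 counts from s001 and s002 and has an interval of 12.4 to 73.7 CPM. It next reached 13.8 CPM in cluster 7, also from 6 counts, and it had no count in clusters 6, 8 and 13.

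**Figure D5:**
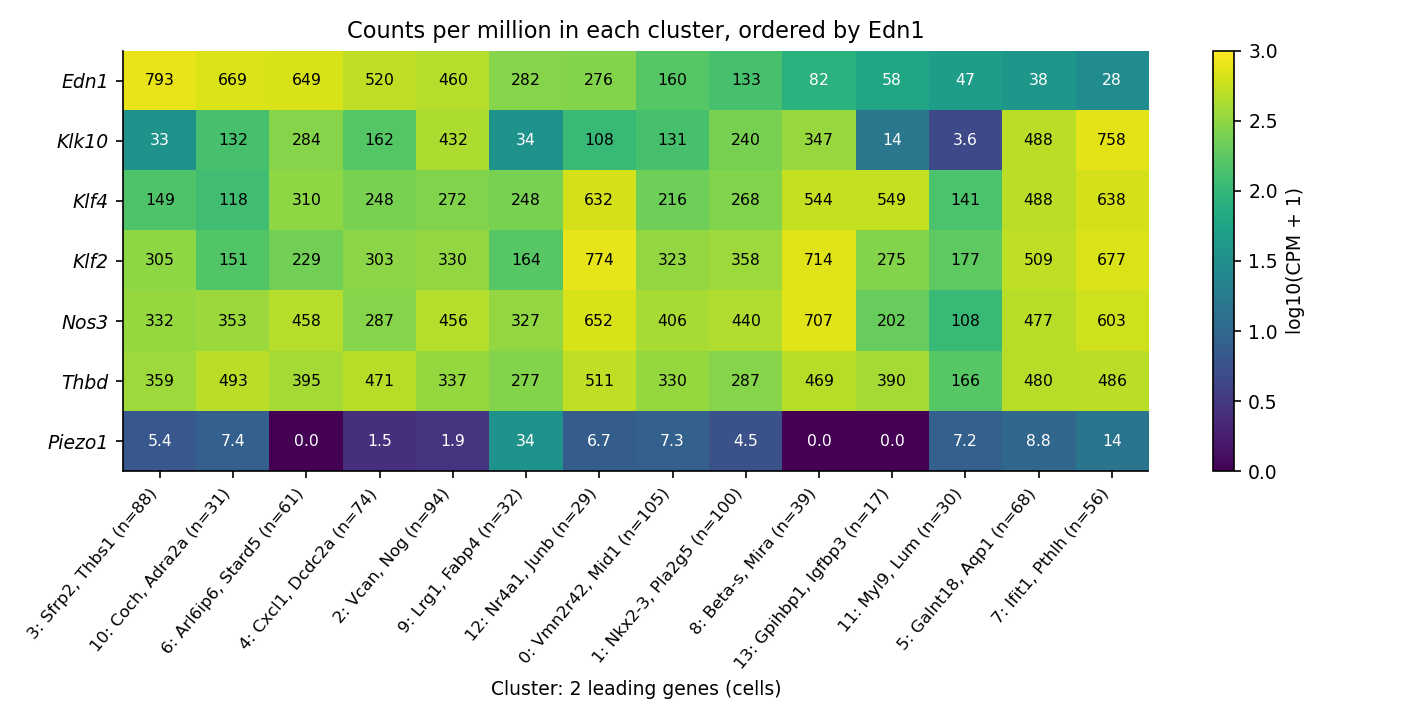
CPM of the 7 genes (rows) in the 14 clusters (columns, with 2 leading genes and the number of cells), ordered from high to low *Edn1*, with colour giving log10(CPM + 1). *Klk10*, *Klf4* and *Klf2* are high in clusters 7 and 5 at the right, where *Edn1* is lowest, and cluster 11 is the one with fibroblast and smooth muscle markers.

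The design asks whether *Jag1* in EC changes these genes, and 9730 genes were tested between labels with edgeR (quasi-likelihood, 2 libraries a label). Of the 6 genes tested, 0 passed an adjusted p of 0.05, as did 0% of all genes, and 0 passed an unadjusted p of 0.05, beside 4.78% of all genes. By edgeR 465 genes were under an unadjusted p of 0.05 and 0 after adjustment, and DESeq2 called 2 genes, neither of them one of the 7. One of these was *Jag1*, higher in the libraries labelled Jag1 ECKO (log2 difference 1.97, DESeq2 adjusted p = 0.0497). In none of the 6 did both libraries of a label lie above both of the other, whereas 16.0% of all genes had both Jag1 ECKO libraries higher and 19.4% both lower. The log2 difference of Jag1 ECKO over Jag1 ECWT was -0.40 ± 0.38 (SE) for *Klf2*, -0.091 ± 0.34 for *Klf4* and -0.026 ± 0.23 for *Nos3*. It was -0.13 ± 0.20 for *Thbd*, 0.23 ± 0.25 for *Klk10* and 0.065 ± 0.35 for *Edn1*. The edgeR adjusted p of these 6 genes was 0.919 to 0.991. An adjusted p above the threshold does not show equal levels, and with 2 libraries a label an exact permutation test of a single gene cannot reach p under 0.05.

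Leaving out any library moved the *Klf2* value. Without s001 the difference was -0.89 and passed (adjusted p = 0.0031, edgeR), with the single remaining library of a label assumed to vary like the other group. It was -0.0095 without s002, 0.14 without s003 and -0.80 without s004. The 10 smooth muscle markers summed to 3526 and 1618 CPM in the Jag1 ECKO libraries and 440 and 1285 CPM in the others. None of them was at 0 in all libraries together, but *Cnn1* had no count in s003. Their median log2 difference was 1.59, with 0 of 10 passing after adjustment (edgeR) and 5 higher at an unadjusted p of 0.05. The 10 fibroblast markers overlapped between labels in sum, at 1449 and 2316 CPM against 1859 and 1801 CPM. Of the 9 tested, 1 was higher at an unadjusted p of 0.05 and 0 after adjustment, namely *Col1a1* (72.8, 66.3, 29.1 and 19.4 CPM in s001 to s004), and their median log2 difference was 0.38. The 35 dissociation genes summed to 7394 and 5333 CPM against 5776 and 5300 CPM. Of the 32 tested, 4 were higher and 0 lower at an unadjusted p of 0.05 and 0 after adjustment (edgeR), with a median log2 difference of 0.39. The 6 pericyte genes (288 and 130 CPM against 88.4 and 98.5 CPM) and the 7 capillary genes (893 and 269 CPM against 225 and 237 CPM) were also higher in sum in both Jag1 ECKO libraries, with 0 passing after adjustment. Their part in the differences was not tested. In EC-like clusters alone edgeR called 0 genes, with 416 under an unadjusted p of 0.05 (DESeq2 was not run on these).

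By median log2 difference the lists around the 7 moved little, from -0.15 to 0.17. Single genes on them moved further than any of the 6 tested, among them *Itgb3* (1.43), *Kcnj2* (-1.54) and *Ass1* (1.42). Of 19 mechanosensors tested, 1 was higher and 1 lower at an unadjusted p of 0.05 and 0 after adjustment, the integrin gene *Itgb3* (23.6, 28.7, 11.6 and 8.71 CPM in s001 to s004) and the potassium channel gene *Kcnj2* (15.7, 3.93, 32.6 and 20.8 CPM). None of 11 genes of the MEKK3-ERK5-MEF2 route passed, with a median log2 difference of -0.13 and *Hdac7* and *Map3k3* as the most abundant. Of 15 laminar flow genes tested, *Ass1*, an enzyme of the pathway that remakes arginine, the substrate of eNOS, was higher (34.4, 87.7, 30.3 and 19.4 CPM), before adjustment only. Of the 13 tested genes whose products act with those of *Nos3*, *Thbd* or *Edn1*, the thrombin receptor gene *F2r* was lower at an unadjusted p (230, 236, 314 and 330 CPM), and of 10 other Krüppel-like factors *Klf10* was (52.2, 50.03, 74.5 and 70.4 CPM). The median log2 difference was -0.056 for the laminar and -0.0095 for the disturbed flow list, beside -0.0010 over all genes tested.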

How the data were processed

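The 4 SORT-seq libraries of sorted mouse aortic cells were analysed. The deposited table holds estimated counts, which the authors made from reads mapped with STAR to GRCm38 by converting molecular identifiers to transcript numbers. The STAR version and the counting tool are not given in the sources used here, and the submitters' notes also name Seurat 3.1. Every cell column was used (0 columns without a sample).

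Estimated counts were rounded to whole numbers, and cells with more than 1200 genes were kept. Cells were clustered with Seurat 5.3.0 (2000 variable genes, 12 principal components, 14 clusters at resolution 2.3), with no doublet caller, since single cells were sorted per well. Clusters were classed from fixed marker lists. A cluster was called fibroblast/VSMC-like if at least 6 such markers stood 3-fold over the other cells, with 20 CPM added to both. Otherwise it was called EC-like if at least 7 of 12 endothelial markers exceeded the mean of all kept cells divided by 3. The EC-like class therefore asks that endothelial markers be kept, not raised. A cluster that met neither rule would only be numbered.

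Levels are CPM (counts per 1000000) of summed counts with exact 95% Poisson intervals, and shares have exact 95% binomial intervals (Clopper-Pearson). Both cover counting error only. For shares and correlations each cell was thinned to the 10th percentile of counts per cell. Likeness was the mean over libraries of Pearson r on log(1 + thinned count), among genes with a count in at least 10% of cells of every library.

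For the labels, counts summed per library were tested with edgeR 4.0.16 (TMM, filterByExpr, quasi-likelihood, Benjamini-Hochberg adjustment over all genes tested) in R 4.3.3, with DESeq2 1.42.0 as an alternative. The standard error is the log2 difference divided by the normal deviate of its p. No label says that libraries come from separate animals, so p-values measure the spread between libraries, which may be technical. The edgeR and thinning steps were tested on simulated data. With 1 common dispersion for all genes, edgeR called 11 of 97 genes changed 2-fold and 86 of 95 changed 4-fold, with 6 false calls. Smaller changes were not simulated. Sequences are RefSeq promoters on GRCm38.p6, and gene positions are from GENCODE on GRCm38.

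The named genes are the 7, *Jag1*, the 3 genes closest to each of the 7, and from each list up to 4 genes under an unadjusted p of 0.05 or else the 2 most abundant. In clusters the 2 highest and 2 lowest levels of each gene are named. Genes named from the correlations of the flow lists, and the motifs, were chosen after their values were seen. The members and lists were chosen with earlier results of these data known, and no list is independent support. Alternatives varied the filter, scaling, tool, libraries, cells, depth, draw and measure of correlation. A result of the label comparison for the disturbed flow list is not reported here.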

Additional observations from a re-analysis of the deposited data

Results flagged for a closer look

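The 167 cells with 1200 genes or fewer were left out of the reported values and entered only alternatives with a wider filter, and the genes had counts in them as well. *Klf2* had 421 CPM in these cells and *Klf4* 331 CPM. *Nos3* had 401 CPM and *Thbd* 302 CPM. *Klk10* had 260 CPM and *Edn1* 257 CPM. *Piezo1* had 1 count. The median depth was 1856 counts a cell, and 22.2% of these cells held a count of *Edn1*.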

How the results depend on the processing

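No gene was called between the labels by edgeR under 12 of 16 alternatives. DESeq2 called 2, omitting the low-count filter gave 127, and leaving out a library gave 0 to 417 (196 without s001 and 417 without s002). Leaving out a library moved the log2 difference from -0.89 to 0.14 for *Klf2*, -0.65 to 0.34 for *Klf4*, -0.37 to 0.26 for *Nos3*, -0.34 to 0.056 for *Thbd*, -0.030 to 0.50 for *Klk10* and -0.42 to 0.84 for *Edn1*, so no direction is given for these genes. Their edgeR adjusted p was under 0.05 for *Klf2* without s001 (0.0031) and for none of the others under any alternative. *Nos3* also changed sign in all deposited cells (0.0015), in EC-like clusters (0.036), in EC-like clusters outside the cluster of immediate early genes (0.0039) and in thinned cells (0.146), and *Edn1* in thinned cells (-0.0062). No paired analysis was possible because replicate numbers were given here in accession order only.

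The correlations depended on the draw of the thinning. The lowest or highest of 20 other draws was 0.0540 for *Klf2* with *Klk10*, -0.129 for *Klf2* with *Edn1*, 0.111 for *Klf4* with *Klk10*, -0.196 and -0.0978 for *Klf4* with *Edn1*, and -0.210 and -0.134 for *Klk10* with *Edn1*, and at the lowest 2 pairs were negative in every library. The mean over draws, added after seeing the data, was 0.156 for *Klf4* with *Klk10*. Thinning to the 25th percentile gave that pair 0.160, and cells with more than 1500 genes gave it 0.114 and *Klf4* with *Edn1* -0.199. Within EC-like clusters, also added later, r was -0.143 for *Klf2* with *Edn1*, -0.0249 for *Klf4* with *Edn1*, -0.109 for *Klk10* with *Edn1*, 0.0869 for *Klf2* with *Klf4*, 0.0417 for *Klf2* with *Klk10* and 0.0827 for *Klf4* with *Klk10*, and it changed sign to -0.0267 for *Nos3* with *Klk10*. The causes were not tested. Summed levels in CPM moved by less than the spread between libraries under every alternative run, whereas the share of cells with a count moved for 5 of the 7 genes. Depth limits *Piezo1* most, with 32 counts in all.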
